A study of Homo sapiens with 6 samples.

Results

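The 39 genes described here encode enzymes, membrane proteins and proton pump subunits of the lysosome. They were chosen by gene name, with earlier results of these data known but by a rule that uses no measured value, and every one was found by symbol among the 58735 genes of the deposited count table. RNA came from MDA-MB-231, an established human triple-negative breast cancer cell line with mesenchymal features, and was extracted at 48 h. The 6 libraries form 2 groups of 3, cells exposed to PM2.5 (airborne particulate matter of small diameter) and Control cells. Neither dose, vehicle nor batch is given in the sources used here, no allele or transgene is named, and both groups are the same line. The design text speaks of 3 biological replicates per condition without saying how separate the cultures were, so p-values measure only the spread between these libraries.

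The lysosome is the acidic compartment in which cells break down proteins, glycans, lipids and swallowed particles. Its enzymes work inside it at low pH, which the vacuolar proton pump keeps up: a soluble V1 sector burns ATP and drives protons through a membrane-embedded V0 sector. Heavily glycosylated membrane proteins line it, and carriers and activators present lipids to the enzymes or export the products. TFEB, TFE3 and MITF, the MiT transcription factors, switch on many of these genes through E-box motifs in their promoters when mTORC1 is inactive at the lysosomal surface.

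Libraries held between 31846136 and 34691009 counts. Levels are given as CPM, the share of a gene in the library total on the usual CPM scale, with totals adjusted by edgeR's TMM factors, and the SD is over the 3 libraries of a group. The first principal component, with 56.9% of the variance, separated the groups, and the second, with 15%, set Control replicate 3 apart from the other Control libraries. HMOX1, the heme oxygenase that oxidative stress induces, stood at 51.3 ± 6.0 CPM in libraries labelled PM2.5 and 812 ± 58.2 CPM in Control libraries (SD, n = 3 each, log2 fold change -3.99, adjusted p = 3.36e-12). CYP1A1, a target of the aryl hydrocarbon receptor that airborne hydrocarbons activate, stood at 2.73 ± 0.649 CPM in libraries labelled PM2.5 and 6.28 ± 1.73 CPM in Control libraries (log2 fold change -1.20, adjusted p = 0.00116). Both are classical responders to particle exposure and both were lower under the PM2.5 label, so each direction below holds for the libraries as labelled.

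Of the cell line's own markers, CAV1 was higher under the PM2.5 label, EGFR and MMP1 were lower, and VIM, CD44 and AXL were not called. Summed over those 6 markers the level was 14640 to 16020 CPM in libraries labelled PM2.5 and 39240 to 40660 CPM in Control libraries, most of it MMP1. Among 10 leukocyte markers 5 were at 0 in every library, PTPRC, AIF1, TYROBP, CD3E and MS4A1, and the list summed to 4.91 to 6.24 CPM in libraries labelled PM2.5 and 2.69 to 3.73 CPM in Control libraries. Osteoclast markers, listed because osteoclasts are rich in cathepsin K and pump subunits, summed to 9.80 to 11.7 CPM under the PM2.5 label and 13.4 to 16.3 CPM in Control libraries with DCSTAMP at 0. The fibroblast list summed to 27.5 to 31.1 CPM under the PM2.5 label and 24.8 to 31.0 CPM in Control libraries, with DCN, LUM and FAP at 0. Endothelial markers summed to 66.7 to 70.3 CPM under the PM2.5 label and 48.6 to 59.7 CPM in Control libraries, with none of 6 at 0 throughout. Of 8 luminal breast markers ESR1, the oestrogen receptor, was at 0, and the sum was 1092 to 1287 CPM under the PM2.5 label and 845 to 1136 CPM in Control libraries, most of it KRT19. Called higher under the PM2.5 label were LYZ and CD14 of the leukocyte list, COL1A2 of the fibroblast list, and TIE1 and PECAM1 of the endothelial list. Called lower were SIGLEC15 of the osteoclast list and GATA3 of the luminal list. COL1A2 averaged 0.547 CPM under the PM2.5 label and 0.0195 CPM in Control libraries. What part these cell types might have in the values below was not tested.

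All 39 lysosomal genes passed the filter on low counts, with between 266 and 500410 counts each over the 6 libraries. With p-values of edgeR's quasi-likelihood test adjusted by Benjamini-Hochberg over 14975 genes, 4 of them were higher in libraries labelled PM2.5 than in Control libraries, 9 were lower and 26 were not called at an adjusted p under 0.05. Over all tested genes 16.1% were called higher and 15.8% lower, 31.9% in all. The share of lysosomal genes called, 33.3%, therefore lay close to the background. CTSC, CTSV, GUSB and LIPA were higher, and NEU1, ATP6V1H, ATP6V0D1, ASAH1, NAGLU, MCOLN1, NPC1, PSAP and GAA were lower. The median log2 fold change of the 39 was -0.10, against -0.01 over all tested genes. Of the 39 estimates 12 lay above 0 and 27 below, where 7360 of all 14975 lay above 0 and 7615 below. The groups did not overlap for 6 higher and 12 lower genes of the 39, where 21.4% of all tested genes were higher without overlap and 22.9% lower, 44.3% in all. Of the called genes 2 were higher by at least 1.4-fold, CTSC and CTSV, where 11.5% of all tested genes were. Lower by at least 1.4-fold were 5, NEU1, ATP6V1H, ATP6V0D1, ASAH1 and NAGLU, where 9.16% of all tested genes were. A bulk level does not tell a smaller share of cells holding a transcript from less transcript in each cell.

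**Figure D1:**
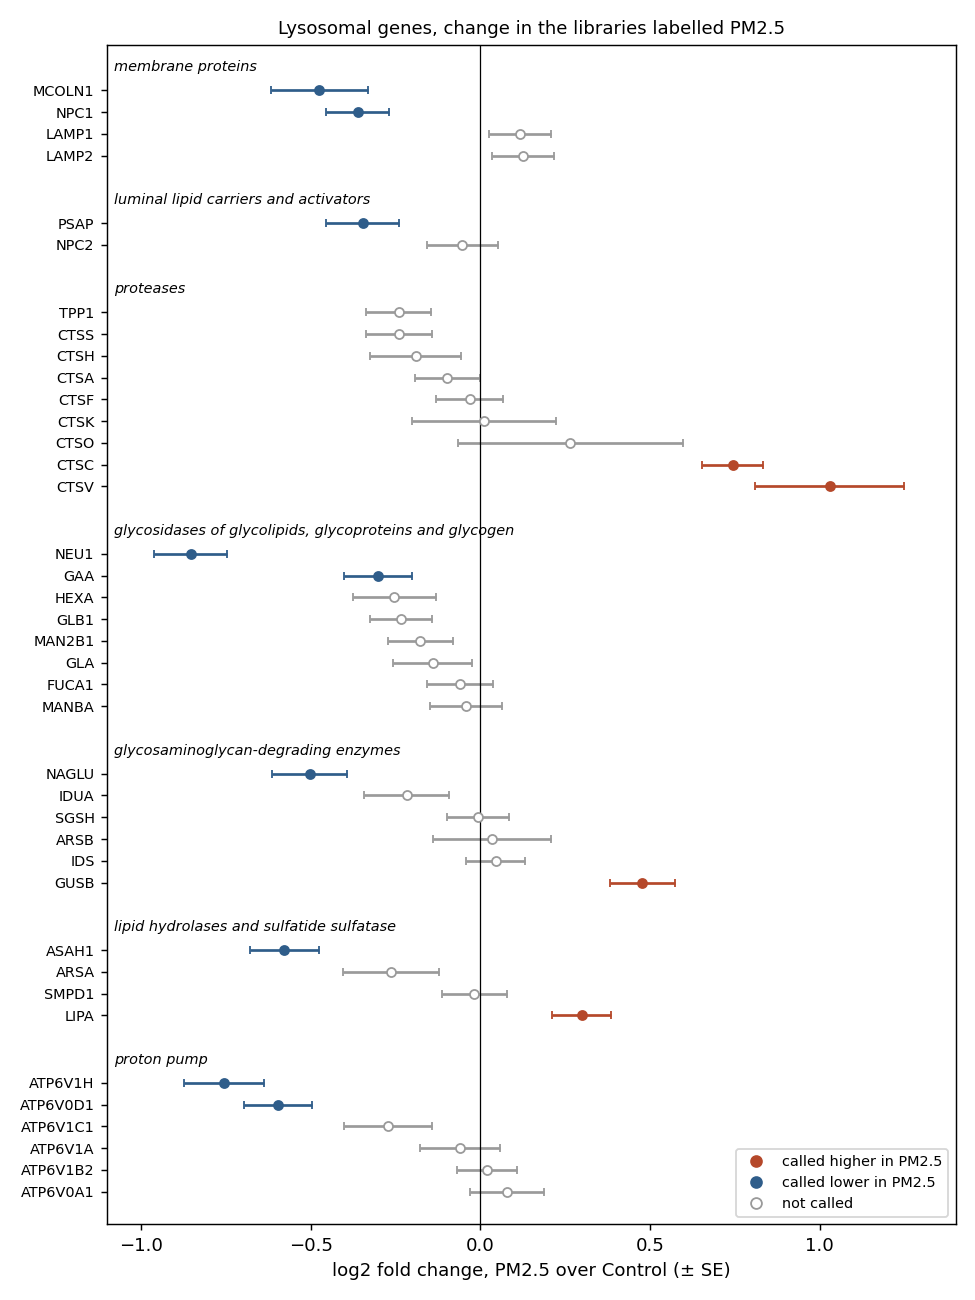
Log2 fold change (libraries labelled PM2.5 over Control, horizontal axis) of each of the 39 lysosomal genes, grouped by role on the vertical axis, with bars of 1 SE and colour for the call at an adjusted p under 0.05. The 9 lower genes are spread over 6 of the 7 roles and the 4 higher genes lie among the proteases, the glycosaminoglycan enzymes and the lipid hydrolases.

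Without Control replicate 3, the library set apart on the second component, 4 of the 39 were higher and 13 lower, the added genes being TPP1, GLB1, HEXA and MAN2B1, and the share of all tested genes called was 35.1%. Without PM2.5 replicate 1 the lower calls fell to 5, NPC1, MCOLN1, PSAP and GAA being lost, and the higher calls to 3, LIPA being lost, while 21.7% of all tested genes were called. CTSC, CTSV, GUSB, NEU1, ATP6V1H, ATP6V0D1, ASAH1 and NAGLU were called in the main comparison and under each of the 14 other settings tried. The largest transcript pool was PSAP, which alone took 36.9 to 42.6% of all counts on the 39 genes. Together the 39 took 0.587% ± 0.0187 of the library counts in libraries labelled PM2.5 and 0.666% ± 0.00392 in Control libraries (SD, n = 3 each). Leaving out PSAP, they took 0.364% ± 0.00547 under the PM2.5 label and 0.387% ± 0.00626 in Control libraries.

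To compare genes with each other, CPM was divided by the summed exon length in kilobases. On that scale PSAP was highest, at 684 CPM per kilobase in libraries labelled PM2.5 and 870 in Control libraries. LAMP2 followed at 74.3 CPM per kilobase under the PM2.5 label and 68.2 in Control libraries. NPC2 came next by its mean, at 56.1 under the PM2.5 label and 58.3 in Control libraries. Its Control libraries (51.2 to 62.9) overlapped those of CTSA (52.6 to 55.9). Under the PM2.5 label NPC2 (50.5 to 61.55) overlapped both CTSA and LAMP1. LAMP1, CTSA, NPC1 and TPP1 lay between 35.3 and 51.0 CPM per kilobase under the PM2.5 label and between 41.8 and 54.1 in Control libraries. Among these 4 genes the Control libraries of NPC1 (45.3 to 48.5) and LAMP1 (46.3 to 47.7) overlapped, while CTSA lay above both and TPP1 below both. Under the PM2.5 label the pairs that overlapped were CTSA (46.4 to 55.0) with LAMP1 (48.3 to 54.1), and NPC1 (35.1 to 38.8) with TPP1 (34.1 to 37.2). At the low end stood CTSV, at 1.12 CPM per kilobase under the PM2.5 label and 0.55 in Control libraries, and CTSO, at 0.49 under the PM2.5 label and 0.41 in Control libraries. Genes with long gene models, such as ASAH1, CTSC and HEXA, may be placed too low on this scale, since the length sums all annotated exons. The length of the transcripts present was not measured.

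**Figure D2:**
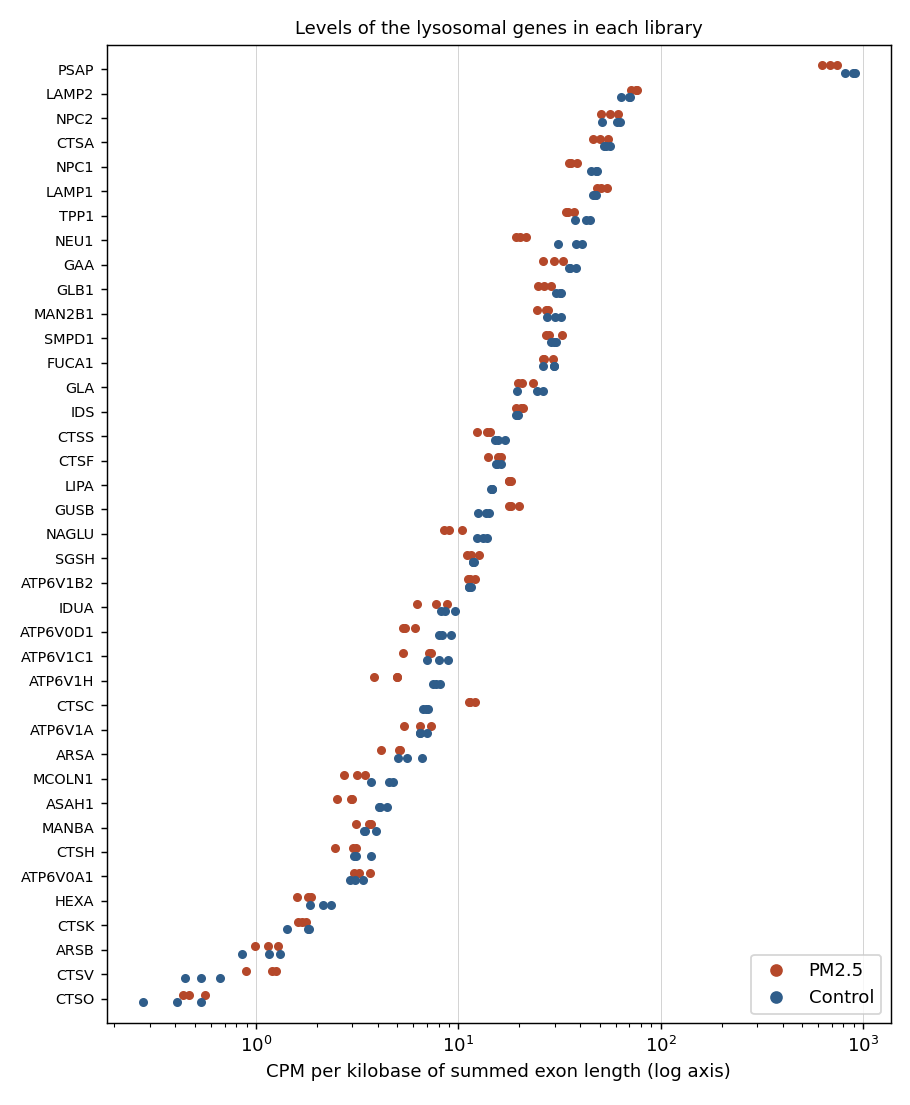
Level of each of the 39 lysosomal genes in every library, as CPM per kilobase of summed exon length on a log axis, in the order of the Control mean, with 1 point per library. PSAP stands alone at the top, at 684 CPM per kilobase on average in libraries labelled PM2.5 and 870 in Control libraries, and CTSO and CTSV are at the bottom.

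A promoter window of 300 bases, from 250 before to 50 after the RefSeq start (GRCh38.p14), was given for 24 of the 39 genes, and some genes had more than 1 start. The windows were searched for the E-box CACGTG and for the longer TCACGTGA, letters recognised by MiT factors among other factors of their class. Both motifs are their own reverse complement, so each search covers both strands, and the longer holds the shorter. CACGTG was found for 8 of the 24 genes, 33.3%, against 12.4% of the 10466 tested genes with a window. TCACGTGA was found for 5 of the 24, 20.8%, against 2.21% of tested genes. Of the 5 lower genes with a window 4 held CACGTG and 3 held TCACGTGA, and of the 4 higher genes none held either. The lower genes ATP6V1H, ASAH1, NAGLU and PSAP had no window. Among the lower genes with TCACGTGA, the calls of GAA and MCOLN1 were lost when some libraries were left out. Among the 15 uncalled genes with a window 4 held CACGTG, CTSA, CTSF, ARSB and LAMP1, and the longer motif was found only in CTSA and LAMP1 of these, around 1 of the 2 copies in CTSA and 2 of the 6 in LAMP1. Over all tested genes with a window CACGTG was found in 11% of those higher, 14.9% of those lower and 12.1% of those not called, and TCACGTGA in 1.83%, 3.60% and 1.94%. A match of letters is not evidence of binding.

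The promoters of the 4 lower genes that hold a motif are printed because they show where the E-boxes lie, and that of LAMP1, chosen after its values were seen, because it holds the most copies and its gene was not called. Each reads 5′ to 3′ on the gene's strand, with CACGTG, or TCACGTGA where that is present, in capitals. Distances run from the start site to the first base of CACGTG.
ATP6V0D1 (chr16:67481108-67481407, minus strand, motif at -59): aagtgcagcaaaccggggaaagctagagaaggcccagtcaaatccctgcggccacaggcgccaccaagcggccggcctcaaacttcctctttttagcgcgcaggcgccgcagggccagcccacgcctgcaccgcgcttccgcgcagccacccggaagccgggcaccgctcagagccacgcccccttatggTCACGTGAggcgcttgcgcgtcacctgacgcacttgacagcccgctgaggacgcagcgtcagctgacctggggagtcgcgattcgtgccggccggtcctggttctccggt
GAA (chr17:80101331-80101630, plus strand, motifs at -76 and -31): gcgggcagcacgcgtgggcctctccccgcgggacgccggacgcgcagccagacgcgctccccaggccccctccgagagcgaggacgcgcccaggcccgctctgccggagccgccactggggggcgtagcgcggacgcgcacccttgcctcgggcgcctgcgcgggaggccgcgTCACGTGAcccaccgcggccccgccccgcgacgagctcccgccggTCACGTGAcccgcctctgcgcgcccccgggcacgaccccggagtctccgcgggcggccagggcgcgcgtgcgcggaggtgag
MCOLN1 (chr19:7522374-7522673, plus strand, motifs at -41 and -14): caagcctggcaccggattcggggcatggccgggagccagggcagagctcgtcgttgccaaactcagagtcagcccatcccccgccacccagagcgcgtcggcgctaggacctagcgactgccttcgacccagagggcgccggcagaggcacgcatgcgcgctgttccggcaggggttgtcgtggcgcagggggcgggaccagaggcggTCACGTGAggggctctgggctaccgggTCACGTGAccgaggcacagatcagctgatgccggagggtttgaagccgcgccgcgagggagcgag
NEU1 (chr6:31862772-31863071, minus strand, motif at -126): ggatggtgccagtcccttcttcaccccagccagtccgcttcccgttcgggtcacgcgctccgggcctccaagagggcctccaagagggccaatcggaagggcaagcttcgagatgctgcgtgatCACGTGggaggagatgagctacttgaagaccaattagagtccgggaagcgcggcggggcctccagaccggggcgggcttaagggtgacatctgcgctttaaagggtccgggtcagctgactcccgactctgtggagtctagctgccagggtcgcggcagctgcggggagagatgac
LAMP1 (chr13:113296989-113297288, plus strand, 6 motifs between -192 and -1): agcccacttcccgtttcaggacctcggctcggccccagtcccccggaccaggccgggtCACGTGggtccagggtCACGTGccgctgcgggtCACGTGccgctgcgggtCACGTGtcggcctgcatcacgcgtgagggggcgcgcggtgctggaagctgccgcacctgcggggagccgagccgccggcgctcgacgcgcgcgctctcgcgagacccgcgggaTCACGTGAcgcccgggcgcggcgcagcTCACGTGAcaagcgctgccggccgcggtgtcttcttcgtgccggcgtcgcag

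Among the 4 membrane proteins, NPC1 and MCOLN1 were lower in libraries labelled PM2.5 and LAMP1 and LAMP2 were not called. NPC1 (ENSG00000141458, chr18:23506184-23586898, minus strand), which moves cholesterol out through the lysosomal membrane, had 355, 366 and 392 CPM in libraries labelled PM2.5 and 482, 490 and 458 CPM in Control libraries. Each PM2.5 library was below each Control library, by a log2 fold change of -0.36 ± 0.09 (SE, adjusted p = 0.00714). MCOLN1 (ENSG00000090674, chr19:7522626-7534009, plus strand), the calcium release channel of the lysosome, had 10.8, 12.5 and 13.7 CPM under the PM2.5 label and 18.7, 14.7 and 18.0 CPM in Control libraries. The groups did not overlap, though Control replicate 2 lay close to PM2.5 replicate 3, and the log2 fold change was -0.48 ± 0.14 (adjusted p = 0.0183). Its call was lost without PM2.5 replicate 1 (adjusted p = 0.126) and without Control replicate 1 (adjusted p = 0.0849).

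LAMP1 and LAMP2, the most abundant proteins of the lysosomal membrane, had estimates above 0. LAMP1 had 291, 277 and 310 CPM in libraries labelled PM2.5 and 266, 271 and 274 CPM in Control libraries. LAMP2 had 417, 422 and 394 CPM under the PM2.5 label and 391, 386 and 354 CPM in Control libraries. For both genes the groups did not overlap, yet neither passed the test, at log2 fold changes of 0.12 ± 0.09 (adjusted p = 0.352) and 0.13 ± 0.09 (adjusted p = 0.327). The LAMP1 estimate was positive under each of the 14 other settings, from 0.07 to 0.16. LAMP1 has 6 E-boxes in its promoter window and was not called, and MCOLN1 has 2 and was lower. Neither the difference between these genes nor any part of the E-boxes in it was tested.

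Both luminal lipid carriers had estimates below 0. PSAP (ENSG00000197746, chr10:71816298-71851375, minus strand) encodes prosaposin, which is cut into the saposins that lift sphingolipids out of membranes for their enzymes. It had 2215, 2038 and 2395 CPM in libraries labelled PM2.5 and 2951, 2877 and 2630 CPM in Control libraries. The groups were separate, with Control replicate 3 nearest to the PM2.5 libraries, and the log2 fold change was -0.35 ± 0.11 (adjusted p = 0.0208). With the replicate number as a block the adjusted p was 0.0593, and it ran from 0.0815 to 0.138 when PM2.5 replicate 1, PM2.5 replicate 2, Control replicate 1 or Control replicate 2 was left out. NPC2, the soluble partner that hands cholesterol to NPC1, averaged 154 ± 15.2 CPM under the PM2.5 label and 160 ± 17.1 CPM in Control libraries (SD, n = 3 each), with overlapping groups and an adjusted p of 0.730.

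Of 9 proteases 2 were higher in libraries labelled PM2.5, none was called lower and 7 were not called. At an unadjusted p under 0.05 CTSS and TPP1 were lower too, but DESeq2 and limma-voom called none lower. CTSC (ENSG00000109861, chr11:88293592-88337787, minus strand) encodes cathepsin C, a dipeptidyl peptidase that activates granule serine proteases. It had 130, 129 and 138 CPM under the PM2.5 label and 79.2, 81.3 and 76.2 CPM in Control libraries. Its groups were far apart relative to the spread within each, at a log2 fold change of 0.74 ± 0.09, a 1.67-fold rise (adjusted p = 1.2e-05). CTSV (ENSG00000136943, chr9:97029679-97039643, minus strand), a cysteine protease close in sequence to cathepsin L, had 5.64, 5.91 and 4.22 CPM under the PM2.5 label and 2.09, 3.11 and 2.52 CPM in Control libraries. This was the largest rise of the 39, 2.04-fold with a log2 fold change of 1.03 ± 0.22 (adjusted p = 0.00214), in a gene with the second-lowest level per kilobase.

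The 7 other proteases had log2 fold changes between -0.24 and 0.26. Cathepsin S, CTSS, an elastin-cleaving enzyme best known for antigen processing, had 58.9, 60.6 and 52.2 CPM in libraries labelled PM2.5 and 66.5, 64.4 and 71.8 CPM in Control libraries. The tripeptidyl peptidase TPP1 had 227, 223 and 243 CPM under the PM2.5 label and 279, 293 and 248 CPM in Control libraries. In both, the groups did not overlap and the test was narrowly missed, at log2 fold changes of -0.24 ± 0.10 (adjusted p = 0.0721) and -0.24 ± 0.10 (adjusted p = 0.0643). TPP1 was called without Control replicate 3 (adjusted p = 0.00654) and when scaled by library totals alone (adjusted p = 0.0415). CTSA, the protective protein that stabilises NEU1 and GLB1 in 1 complex, averaged 296 ± 25.3 CPM under the PM2.5 label and 317 ± 9.99 CPM in Control libraries (log2 fold change -0.10 ± 0.10, adjusted p = 0.468). Exons of other genes cover 28.5% of the exonic bases of CTSA and 14.4% of those of TPP1, so their counts may hold reads of neighbours. CTSF, CTSH, CTSK and CTSO, further cysteine cathepsins, had overlapping groups, at log2 fold changes of -0.03 ± 0.10, -0.19 ± 0.13, 0.01 ± 0.21 and 0.26 ± 0.33. CTSK, the collagenase of osteoclasts, stood at 3.20 ± 0.143 CPM under the PM2.5 label and 3.18 ± 0.425 CPM in Control libraries.

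**Figure D3:**
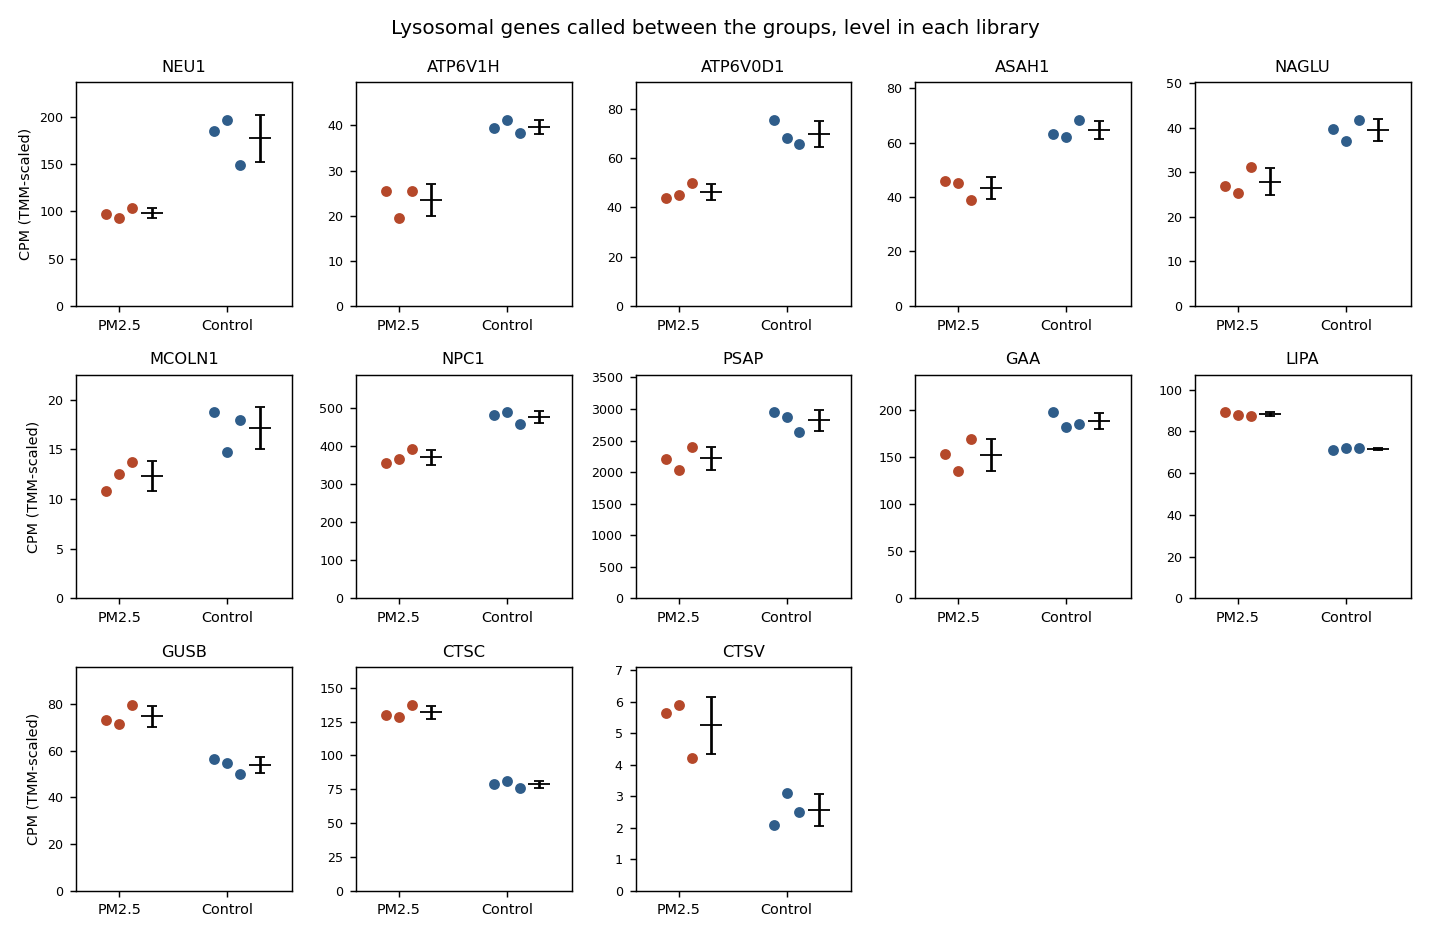
CPM (vertical axes, starting at 0) of the 13 called lysosomal genes in each library, 1 panel per gene, with points for libraries, PM2.5 left of Control, and bars for the mean and SD of 3 libraries. In every panel the 3 libraries labelled PM2.5 lie wholly above or wholly below the 3 Control libraries, and the gap is narrow for MCOLN1, GAA and PSAP.

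Each of the 8 glycosidases of glycolipids, glycoproteins and glycogen had an estimate below 0, where 7615 of all 14975 tested genes had. The estimate of MANBA turned to 0.027 without PM2.5 replicate 3 and 0.024 without Control replicate 2. Against 31.9% of all tested genes, 25% of the 8 glycosidases were called. Lower were 2, NEU1 and GAA, and 6 were not called. None was called higher, and none was higher at an unadjusted p under 0.05 or by DESeq2 or limma-voom. NEU1 (ENSG00000204386, chr6:31857659-31862906, minus strand), the sialidase that strips terminal sialic acids, had 96.8, 93.0 and 104 CPM in libraries labelled PM2.5 and 185, 197 and 149 CPM in Control libraries. This was the deepest fall of the 39, 1.81-fold, at a log2 fold change of -0.85 ± 0.11 (adjusted p = 2e-05). Control replicate 3 was the lowest Control library and still stood clear of every PM2.5 library. GAA (ENSG00000171298, chr17:80101556-80119879, plus strand), the acid alpha-glucosidase that degrades glycogen, had 154, 135 and 169 CPM under the PM2.5 label and 198, 182 and 185 CPM in Control libraries. Its change was small, at a log2 fold change of -0.30 ± 0.10 (adjusted p = 0.0289), and was lost without PM2.5 replicate 1, PM2.5 replicate 2, Control replicate 1 or Control replicate 2, at adjusted p-values from 0.0588 to 0.132.

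GLB1, the beta-galactosidase whose activity is used as a senescence stain, had 115, 108 and 126 CPM in libraries labelled PM2.5 and 140, 139 and 132 CPM in Control libraries. The groups were separate without passing the test, at a log2 fold change of -0.23 ± 0.09 (adjusted p = 0.063). HEXA, the alpha subunit of beta-hexosaminidase A, averaged 22.3 ± 1.88 CPM under the PM2.5 label and 26.6 ± 3.15 CPM in Control libraries, with an adjusted p of 0.127. MAN2B1, an alpha-mannosidase with 21.2% of its exonic bases under exons of other genes, averaged 142 ± 9.11 CPM under the PM2.5 label and 161 ± 13.1 CPM in Control libraries, with an adjusted p of 0.174. GLB1, HEXA and MAN2B1 were called lower without Control replicate 3, at adjusted p-values of 0.0285, 0.0361 and 0.0402, and GLB1 also without PM2.5 replicate 3, at an adjusted p of 0.0332. GLA, MANBA and FUCA1, which remove alpha-galactose, beta-mannose and fucose, had log2 fold changes between -0.14 and -0.04 and overlapping groups. Exons of other genes cover 11.3% of the exonic bases of MANBA. Summed over the 8 glycosidases the level was 677 ± 45.1 CPM under the PM2.5 label and 843 ± 53.1 CPM in Control libraries. The largest difference among the 8 was that of NEU1, which averaged 97.9 CPM under the PM2.5 label and 177 CPM in Control libraries.

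The 6 enzymes of glycosaminoglycan breakdown held 1 higher gene, 1 lower gene and 4 that were not called. GUSB (ENSG00000169919, chr7:65960684-65982314, minus strand), beta-glucuronidase, had 72.9, 71.4 and 79.7 CPM in libraries labelled PM2.5 and 56.5, 54.7 and 49.9 CPM in Control libraries. The groups were well apart, at a log2 fold change of 0.48 ± 0.10 (adjusted p = 0.00131). GUSB is often used as a housekeeping gene for normalisation, and 1.06% of its 50-base words recur in other genes, chiefly its pseudogene GUSBP2. NAGLU (ENSG00000108784, chr17:42536172-42544449, plus strand), an alpha-N-acetylglucosaminidase of heparan sulfate, had 27.0, 25.4 and 31.2 CPM under the PM2.5 label and 39.7, 37.1 and 41.9 CPM in Control libraries. It changed in the opposite direction to GUSB without overlap of the groups, at a log2 fold change of -0.50 ± 0.11 (adjusted p = 0.0025), with 12.6% of its exonic bases under exons of another gene on the same strand.

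The sulfatases IDS, SGSH and ARSB and the iduronidase IDUA, which take further steps of the same breakdown, had overlapping groups. SGSH averaged 79.1 ± 5.69 CPM in libraries labelled PM2.5 and 79.6 ± 0.50 CPM in Control libraries, a log2 difference of -0.01 ± 0.09. IDS averaged 187 ± 7.98 CPM under the PM2.5 label and 182 ± 1.77 CPM in Control libraries, a log2 fold change of 0.04 ± 0.09. Of its 50-base words 4.43% recur elsewhere, chiefly in its pseudogene, and exons of other genes cover 17.4% of its exonic bases. IDUA, with 13.3% of its exonic bases under exons of another gene, averaged 30.4 ± 4.97 CPM under the PM2.5 label and 35.3 ± 2.97 CPM in Control libraries. ARSB averaged 10.3 ± 1.34 CPM under the PM2.5 label and 10.1 ± 2.15 CPM in Control libraries. The summed level of the 6 genes was 410 ± 9.21 CPM under the PM2.5 label and 400 ± 5.53 CPM in Control libraries.

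Of the lipid hydrolases and the sulfatide sulfatase, LIPA was higher, ASAH1 was lower, and SMPD1 and ARSA were not called. LIPA (ENSG00000107798, chr10:89213569-89414557, minus strand), the acid lipase that frees cholesterol and fatty acids from swallowed lipoproteins, had 89.2, 87.9 and 87.3 CPM in libraries labelled PM2.5 and 71.1, 72.0 and 72.0 CPM in Control libraries. It had the smallest spread of the 39 among the PM2.5 libraries, a coefficient of variation of 1.13% against a median of 8.46%. The log2 fold change was 0.30 ± 0.09 (adjusted p = 0.0163), and without PM2.5 replicate 1, Control replicate 1 or Control replicate 2 the adjusted p ran from 0.058 to 0.0834. NPC1, which exports the cholesterol that LIPA frees, was lower in the same libraries.

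ASAH1 (ENSG00000104763, chr8:18055992-18084998, minus strand), the acid ceramidase that splits ceramide into sphingosine and fatty acid, had 45.9, 45.3 and 38.8 CPM in libraries labelled PM2.5 and 63.3, 62.1 and 68.5 CPM in Control libraries. Its groups were separate, with replicate 3 lowest under the PM2.5 label and highest in Control, and the log2 fold change was -0.58 ± 0.10 (adjusted p = 0.000427). SMPD1, the acid sphingomyelinase that makes ceramide, averaged 80.6 ± 7.74 CPM under the PM2.5 label and 81.6 ± 2.29 CPM in Control libraries, a log2 fold change of -0.02 ± 0.10. ARSA, which removes sulfate from sulfatide, averaged 14.0 ± 1.61 CPM under the PM2.5 label and 16.8 ± 2.27 CPM in Control libraries (log2 fold change -0.26 ± 0.14, adjusted p = 0.171).

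Of the 6 pump subunits 2 were lower in libraries labelled PM2.5, none was called higher and 4 were not called. None of the 6 was higher at an unadjusted p under 0.05, nor by DESeq2 or limma-voom. ATP6V1H (ENSG00000047249, chr8:53715557-53843558, minus strand), the V1 subunit that restrains ATP hydrolysis when V1 is detached, had 25.5, 19.5 and 25.5 CPM under the PM2.5 label and 39.4, 41.3 and 38.3 CPM in Control libraries. PM2.5 replicate 2 was the lowest, all 3 Control libraries lay above the PM2.5 libraries, and the log2 fold change was -0.76 ± 0.12 (adjusted p = 0.000173). ATP6V0D1 (ENSG00000159720, chr16:67438014-67481237, minus strand), the V0 subunit that couples the turning of both sectors, had 43.7, 44.9 and 50.02 CPM under the PM2.5 label and 75.7, 68.1 and 65.9 CPM in Control libraries. Its groups were as clearly separate, at a log2 fold change of -0.60 ± 0.10 (adjusted p = 0.000289).

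The subunits of the ATP-splitting head among the 39 were not called. ATP6V1A, which with the B subunit forms the ATP-splitting head, averaged 32.7 ± 4.92 CPM in libraries labelled PM2.5 and 34.2 ± 1.54 CPM in Control libraries (log2 fold change -0.06 ± 0.12). ATP6V1B2 averaged 90.1 ± 3.73 CPM under the PM2.5 label and 88.9 ± 1.46 CPM in Control libraries (log2 fold change 0.02 ± 0.09). The stalk subunit ATP6V1C1 averaged 38.8 ± 6.57 CPM under the PM2.5 label and 46.8 ± 5.70 CPM in Control libraries (log2 fold change -0.27 ± 0.13, adjusted p = 0.121). ATP6V0A1, a proton-conducting V0 subunit, averaged 36.3 ± 3.43 CPM under the PM2.5 label and 34.4 ± 2.61 CPM in Control libraries (log2 fold change 0.08 ± 0.11). Subunits of 1 complex thus had estimates between -0.76 and 0.08.

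The other genes of the pump, 19 further symbols of subunits, isoforms and accessory proteins, were examined for comparison. Of the 17 tested, 1 was higher and 6 were lower, 41.2% called against 31.9% of all tested genes, with a median log2 fold change of -0.26. ATP6V0D2, the tissue-restricted isoform of ATP6V0D1 best known from osteoclasts, averaged 13.5 ± 0.647 CPM in libraries labelled PM2.5 and 38.5 ± 7.49 CPM in Control libraries (log2 fold change -1.51 ± 0.14, adjusted p = 6.59e-07). Both d isoforms were therefore lower, though 16.7% of the exonic bases of ATP6V0D2 lie under other exons. ATP6V1F averaged 45.9 ± 3.02 CPM under the PM2.5 label and 90.1 ± 9.95 CPM in Control libraries (log2 fold change -0.97 ± 0.10), with 23.7% of its exonic bases under other exons. ATP6V1E1 averaged 108 ± 2.38 CPM under the PM2.5 label and 159 ± 9.82 CPM in Control libraries. ATP6V0E1 averaged 169 ± 11.8 CPM under the PM2.5 label and 243 ± 19.9 CPM in Control libraries. The higher subunit was ATP6V1C2, an isoform of ATP6V1C1 at 2.69 ± 0.762 CPM under the PM2.5 label and 1.15 ± 0.174 CPM in Control libraries, which was named because it was the only one and has 29.9% of its exonic bases under other exons.

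Over the whole pump, 8 of 23 tested genes were lower, 1 was higher and 14 were not called, where 15.8% of all tested genes were lower. Lower genes were found in both sectors, 4 of the 10 V0 genes and 4 of the 11 tested V1 genes, and neither accessory protein was called. Among the 18 pump genes with a mean of at least 5 CPM 8 were lower and 10 were not called. That cut leaves out ATP6V1C2, the only higher gene, and the share of all tested genes lower above it was not counted. The V0 rotor gene ATP6V0C, singled out after its values were seen, gave little to read, with 0.746 CPM under the PM2.5 label and 0.669 CPM in Control libraries and 72.1% of its exonic bases under exons of other genes.

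**Figure D4:**
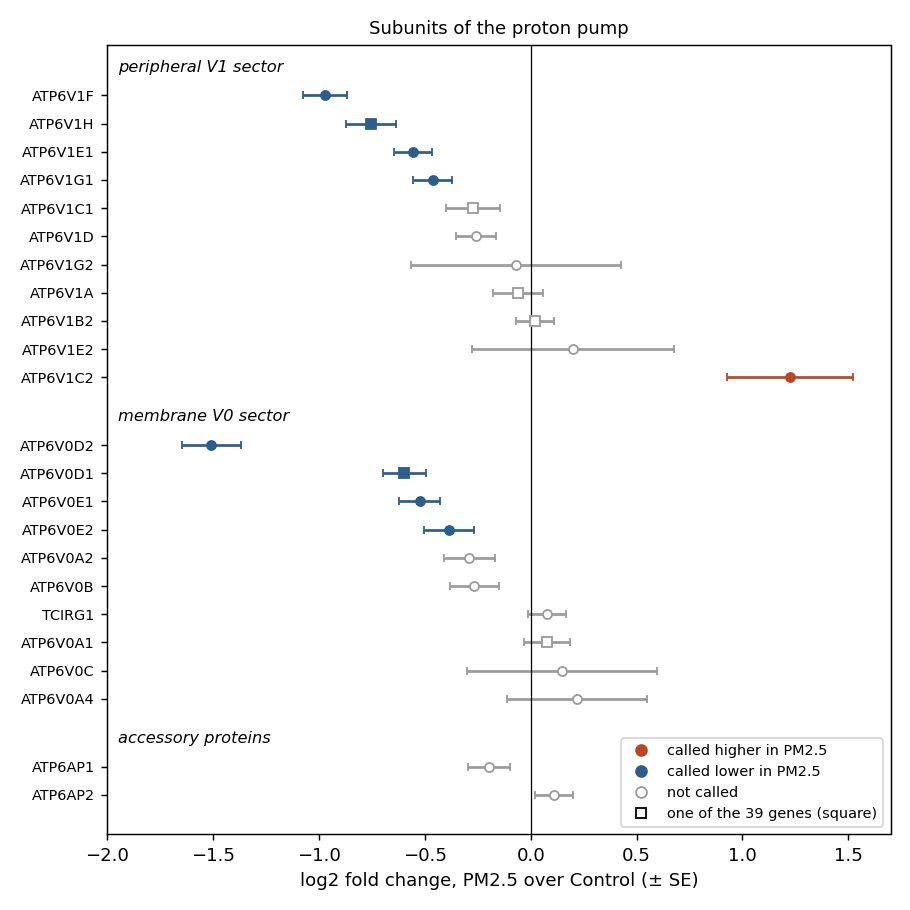
Log2 fold change (libraries labelled PM2.5 over Control, horizontal axis) with bars of 1 SE for the 23 tested genes of the proton pump, by sector. Lower calls run from ATP6V0D2 at -1.51 to ATP6V0E2 at -0.39, while the head subunits ATP6V1A and ATP6V1B2 lie at -0.06 and 0.02.

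Further lists of lysosome genes that are not among the 39 were counted the same way. Over all tested genes 16.1% were higher and 15.8% lower, 31.9% in all. Of 31 other lysosomal hydrolases tested 3 were higher and 6 lower, 29% called, with a median log2 fold change of -0.01. Among them CTSL, cathepsin L and the nearest relative of CTSV, had 535, 501 and 533 CPM in libraries labelled PM2.5 and 1309, 1298 and 1197 CPM in Control libraries. It thus fell (log2 fold change -1.28 ± 0.10, adjusted p = 6.91e-08) where CTSV rose. CTSB and CTSD, both abundant cathepsins, were not called, at log2 fold changes of -0.07 ± 0.10 and -0.15 ± 0.11, with 52.7% of the exonic bases of CTSD under other exons. Of 30 other lysosomal membrane proteins 3 were higher and 7 lower, 33.3% called, with a median of -0.15. The lower genes numbered 4 without PM2.5 replicate 1 or without Control replicate 2, where 21.7% and 24.4% of all tested genes were called. LAMP3, an inducible relative of LAMP1 and LAMP2, averaged 3.73 CPM under the PM2.5 label and 0.952 CPM in Control libraries (log2 fold change 1.97). CTNS, the cystine exporter, averaged 10.3 CPM under the PM2.5 label and 22.6 CPM in Control libraries (log2 fold change -1.13). CLCN7, the chloride antiporter, averaged 32.7 CPM under the PM2.5 label and 58.6 CPM in Control libraries (log2 fold change -0.84).

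The receptors and enzymes that sort hydrolases to the lysosome held 1 higher and 3 lower genes of 18, 22.2% called against 31.9% of all tested genes. The lower genes numbered 1 without PM2.5 replicate 1, Control replicate 2 or Control replicate 3, with library totals alone or with the replicate block. Of all tested genes 21.7%, 24.4%, 35.1%, 29.4% and 25.2% were called under those settings, in that order. The higher genes numbered 2 with DESeq2, upper-quartile factors, library totals alone or the stricter filter, and without Control replicate 3. There the shares of all tested genes called were, in that order, 33.2%, 31.5%, 29.4%, 36.7% and 35.1%. SORT1, the sortilin that also carries prosaposin, averaged 130 CPM in libraries labelled PM2.5 and 76.3 CPM in Control libraries (log2 fold change 0.77). M6PR, the cation-dependent mannose 6-phosphate receptor, averaged 82.5 CPM under the PM2.5 label and 112 CPM in Control libraries (log2 fold change -0.44), with 29.3% of its exonic bases under other exons. IGF2R, the other such receptor, averaged 189.7 ± 10.03 CPM under the PM2.5 label and 183 ± 49.4 CPM in Control libraries (SD, n = 3 each) and was not called. Control replicate 3, at 239.7 CPM, stood above the other Control libraries, at 158 and 151 CPM, and without it IGF2R was called higher (edgeR log2 fold change 0.30, adjusted p = 0.0103).

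The MiT factors themselves were not called. TFEB averaged 14.1 ± 0.586 CPM in libraries labelled PM2.5 and 16.1 ± 1.65 CPM in Control libraries (adjusted p = 0.304). TFE3 averaged 347 ± 21.9 CPM under the PM2.5 label and 302 ± 32.9 CPM in Control libraries (adjusted p = 0.151), and was called only when scaled by library totals alone (adjusted p = 0.0449). MITF averaged 11.2 ± 2.37 CPM under the PM2.5 label and 11.3 ± 0.441 CPM in Control libraries. These are transcript levels, and the activity of these factors depends on their place in the cell, which RNA does not report. In the list of 23 tested genes for MiT factors and mTORC1 at the lysosome, 10 were lower and 1 was higher, with a median log2 fold change of -0.32. These calls made up 47.8% of the list, where 31.9% of all tested genes were called, 15.8% lower. FNIP2, a partner of folliculin, averaged 6.99 CPM under the PM2.5 label and 17.2 CPM in Control libraries (log2 fold change -1.30), and LAMTOR1, which anchors mTORC1 to the lysosome, averaged 59.3 CPM under the PM2.5 label and 99.7 CPM in Control libraries (log2 fold change -0.75). Without PM2.5 replicate 1 this list held 6 lower genes, and the higher gene, RHEB, was lost, as it was without PM2.5 replicate 2. Of all tested genes 21.7% and 24.0% were called under those settings.

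Over all tested genes 31.9% were called, 15.8% lower. The list with the largest share of calls, 50%, was that for lysosome fusion and positioning, where 12 of 24 genes were lower and none was higher. Its median log2 fold change was -0.40. None was higher at an unadjusted p under 0.05 either, nor by DESeq2 or limma-voom. VPS11, a core subunit of the tethering complexes CORVET and HOPS, averaged 66.1 CPM in libraries labelled PM2.5 and 109 CPM in Control libraries (log2 fold change -0.72). PLEKHM1, an adaptor of HOPS, averaged 177 CPM under the PM2.5 label and 269 CPM in Control libraries (log2 fold change -0.60). Without PM2.5 replicate 1 the lower genes numbered 8 of the 24, and without Control replicate 3 they numbered 14. Of all tested genes 21.7% and 35.1% were called under those settings. Of 14 genes of the response to lysosomal damage 2 were higher, YOD1 and VCP, and 3 were lower, 35.7% called. LGALS3, the galectin that gathers on broken lysosomes, averaged 279 CPM under the PM2.5 label and 394 CPM in Control libraries (log2 fold change -0.50).

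**Figure D5:**
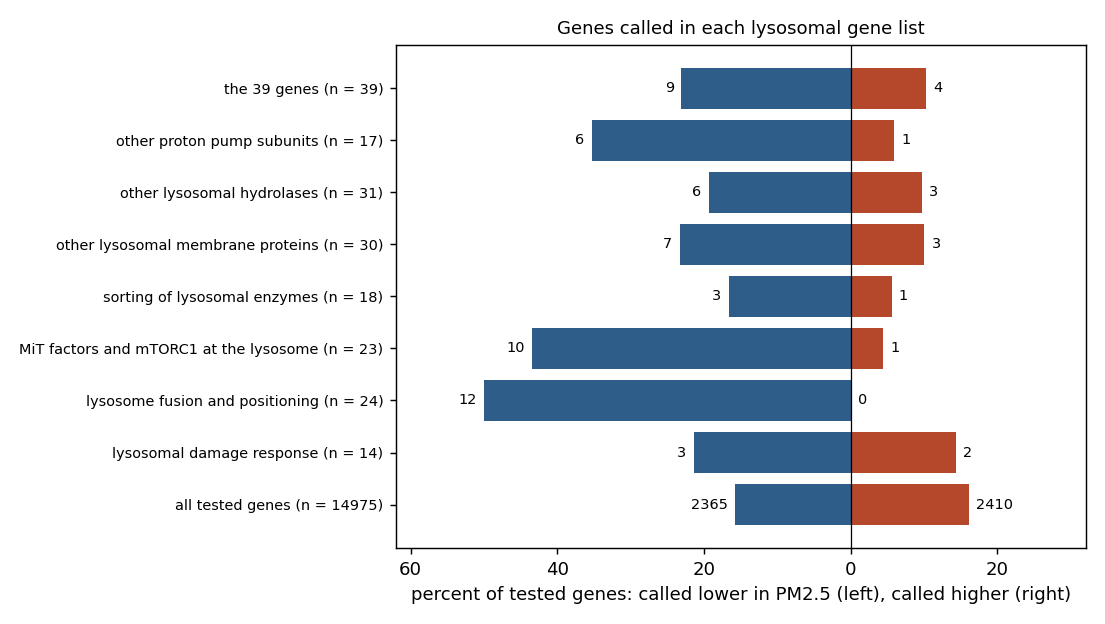
Percent of tested genes called lower (bars to the left) or higher (bars to the right) in libraries labelled PM2.5 than in Control libraries, with the number of genes beside each bar, for the 39 lysosomal genes and the other lysosome lists, beside all 14975 tested genes. The 39 genes have a called share of 33.3%, close to the 31.9% of all tested genes, and the fusion and positioning list has 12 genes called lower and 0 called higher.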

How the data were processed

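The file the authors deposited holds raw read counts of each gene in 6 libraries, per the file headers. The submitters' processing notes name GRCh38. No aligner, counter or strand setting is given in the sources used here, so reads of overlapping genes may be mixed. All gene identifiers matched GENCODE release 29, the source of exon lengths and overlaps.

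The comparison was run with edgeR 4.0.16 in R 4.3.3. Its filterByExpr step (minimum count 10, minimum total count 15) kept 14975 genes, and TMM factors ran from 0.962 to 1.047. Groups were compared with the two-sided quasi-likelihood test, Benjamini-Hochberg adjusted over all tested genes. Fold changes put PM2.5 over Control, and SEs were obtained from the fold change and its F statistic. A count of 0 allows up to 0.0865 to 0.0942 CPM (3 counts), for counting error only. Replicates differed beyond counting noise (chi-square per degree of freedom 5.85 to 36.5). Alternatives used DESeq2 1.42.0, limma 3.58.1 (voom), other scalings and filters, a replicate block, and each library left out.

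The 39 genes and the lists were chosen with earlier results of these data known. All 39 are accounted for. Values in every library are given for called genes changed at least 1.4-fold and for the 10 called genes with the smallest p, and here also for the other called genes. Up to 4 called genes of each further list, by p, and 21 genes in any case could be named, leaving out items not reported here. TMEM55B was listed and is in the table as PIP4P1.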

Additional observations from a re-analysis of the deposited data

How the results depend on the processing

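The count of the 39 genes called, 4 higher and 9 lower, and the 13 genes behind it were unchanged with DESeq2, limma-voom, DESeq2 size factors, upper-quartile factors, no filter and a stricter filter of at least 1 CPM, and library totals alone added TPP1. Without 1 library the higher genes among the 39 ranged from 3 to 4 and the lower from 5 to 13, their median log2 fold change from -0.139 to -0.0802, the lower genes over the other lysosome lists from 30 to 54 (47 with all 6 libraries), and the lower genes over all tested genes from 1436 to 2653, the lowest counts without PM2.5 replicate 1.

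Pairing by replicate number is not stated, so the numbers were not taken as pairs. Deviations of libraries with the same number correlated at -0.122 to -0.0016. These correlations cannot show that pairing is absent, since the deviations within a group are tied to each other. With the replicate number as a block 3777 genes were called, 1951 higher and 1826 lower, and 12 of the 39, all among the 13, with PSAP lost.

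Estimates near 0 changed sign. None of them was called where its sign had turned, though IGF2R was called without Control replicate 3. SGSH turned to 0.0037 with DESeq2 and with DESeq2 size factors, 0.011 with upper-quartile factors, 0.014 with library totals alone and 0.000295 with the stricter filter. SMPD1 turned to 0.00102 with upper-quartile factors and 0.00298 with library totals alone, MITF to 0.0044 with library totals alone and CTSK to -0.00016 with no filter. Without 1 library the estimates that turned were NPC2 (-0.139 to 0.016), CTSF (-0.076 to 0.026), CTSK (-0.098 to 0.074), MANBA (-0.089 to 0.027), ARSB (-0.126 to 0.176), SGSH (-0.065 to 0.037), SMPD1 (-0.099 to 0.032), ATP6V1A (-0.168 to 0.048), ATP6V1B2 (-0.014 to 0.044), ATP6V0A1 (-0.0013 to 0.144), MITF (-0.209 to 0.078), IGF2R (-0.067 to 0.298) and CD44 (-0.022 to 0.042), each given as the range of its log2 fold change over those settings. The cause was not tested. Among the 39, CTSO, CTSK and CTSV had the fewest counts over the 6 libraries, 266, 635 and 788, and SEs of 0.33, 0.21 and 0.22.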

Other observations

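PM2.5 replicate 3 had the highest CPM of its group for 25 of the 39 genes and PM2.5 replicate 2 the lowest for 22, while Control replicate 3 had the lowest CPM of the Control group for 21. The median coefficient of variation over the 39 was 8.46% in libraries labelled PM2.5 and 6.36% in Control libraries. CTSV varied most among the PM2.5 libraries, at 17.2%, and CTSO among the Control libraries, at 31.8%.

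CTSW and PRCP, a cysteine protease of lymphocytes and a lysosomal carboxypeptidase, were named after their values were seen. CTSW averaged 9.51 ± 2.60 CPM in libraries labelled PM2.5 and 4.30 ± 0.863 CPM in Control libraries (SD, n = 3 each, edgeR log2 fold change 1.15 ± 0.22, adjusted p = 0.000833). PRCP averaged 170 ± 7.47 CPM under the PM2.5 label and 127 ± 4.84 CPM in Control libraries (log2 fold change 0.42 ± 0.09, adjusted p = 0.00188).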
